A study of Mus musculus with 9 samples.

Results

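The phosphofructokinase-2 isoforms and the AMPK subunits are described here through 10 genes: the 4 genes for the bifunctional enzymes that make and break fructose-2,6-bisphosphate (Pfkfb1, Pfkfb2, Pfkfb3 and Pfkfb4) and 6 genes for subunits of the AMP-activated protein kinase (AMPK) (Prkaa1, Prkaa2, Prkab1, Prkab2, Prkag1 and Prkag3). They were found by symbol, all 10 of them, among the 14300 protein-coding genes listed in both deposited tables. Pfkfb3 and Prkag3 were chosen by their measured expression differences between these same groups, so their values are given as a description and carry no test. The other 8 were taken as members of the 2 families and were tested. Not every AMPK subunit gene is among the 10, and the rest were not analysed here.

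RNA was sequenced from tibialis anterior (TA), a mainly fast shin muscle, of male C57BL/6J mice. There were 3 groups of 3 libraries: control, orchiectomy (ORX, surgical removal of the testes), and orchiectomy with the androgen dihydrotestosterone (ORX+DHT), taken 4 weeks after treatment. The labels call the first group control and the deposited columns call it sham, and no dose or age is given in the sources used here. The labels call the libraries of a group biological replicates without naming the animals, so p-values measure the spread between these libraries.

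Fructose-2,6-bisphosphate is a small sugar phosphate that activates phosphofructokinase-1, the committed step of glycolysis, and inhibits fructose-1,6-bisphosphatase, which runs the step backwards. Each PFKFB enzyme carries a kinase that makes it and a phosphatase that removes it, and the 4 isoforms differ in the balance of the 2 activities and in the tissues that use them; the enzyme of Pfkfb3 has by far the strongest kinase bias. AMPK is the energy sensor of the cell, a complex of a catalytic α, a scaffolding β and a nucleotide-binding γ subunit, which turns on fuel-burning pathways when AMP rises. In skeletal muscle α2 and β2 are the typical α and β isoforms, and γ3 is largely restricted to fast glycolytic fibres. AMPK can phosphorylate PFKFB isoforms.

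Libraries held 1340209 to 1682235 reads over the listed genes. The tissue label was checked against markers fixed for it. Acta1 and Ckm, for muscle actin and muscle creatine kinase, averaged 58766 and 19585 normalised counts, and Myh4 and Myh1, for the fast myosins, 83083 and 26306, whereas slow Myh7 averaged 4.96. All 4 adipocyte markers had a mean under 10, and Lep was at 0 in 6 of 9 libraries. Control replicate 1 stood apart in its markers: its summed muscle fibre markers were 171999 normalised counts against 109703 and 112980 in the other controls, and its handling-response genes 92.4 against 24.3 and 26.8. Calls that change without it are named where they occur.

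Pfkfb3 lies on chromosome 2 (GRCm38, chr2:11471433-11554077, minus strand, ENSMUSG00000026773). RefSeq lists 2 starts for it, and gene-level counts do not tell which of them was used. The stretches in front of both starts are shown because Pfkfb3 is the member with the largest difference between groups. They are read 5′ to 3′ on the gene's strand, from RefSeq on GRCm38.p6, and end where an annotated exon begins. Capitals mark matches to ACGTG on either strand. It is a form of the core recognised by hypoxia-inducible factors and part of the CACGTG box of clock and MYC-type factors. Other forms of the core, such as GCGTG, were not searched for and are not marked.
Pfkfb3, upstream start, chr2:11554078-11554179: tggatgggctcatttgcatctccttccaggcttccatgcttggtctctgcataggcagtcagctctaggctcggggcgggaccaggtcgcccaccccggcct
Pfkfb3, downstream start, chr2:11502102-11502340: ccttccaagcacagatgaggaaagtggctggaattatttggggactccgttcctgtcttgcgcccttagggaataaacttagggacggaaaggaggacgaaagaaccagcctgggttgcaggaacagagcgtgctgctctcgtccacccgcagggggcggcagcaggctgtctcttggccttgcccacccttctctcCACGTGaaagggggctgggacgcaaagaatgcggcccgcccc
The second stretch held 2 matches that overlap in 1 palindrome, CACGTG, and the first held 0; the 1 match in the full window of the first start lies within an annotated exon and is not shown. In the full 250 bases before each start, an ACGTG match was found before 4 of the 16 RefSeq starts of the 10 genes, 2 of them of Pfkfb3 and 2 of Pfkfb2, and before 16.6% of 32851 starts of all genes. The hormone receptor half-site TGTTCT (or AGAACA) was found before 3 of the 16 starts, 1 each of Pfkfb2, Pfkfb4 and Prkag1, and before 16.1% of all starts. The full palindrome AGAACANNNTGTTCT was found before 0 of the 16 and before 0.00913% of all starts. No match to either was found before the starts of Pfkfb3 or Prkag3, which says only that these letters are not in these windows. All 250 bases of the Prkag3 window lie within annotated exons.

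Pfkfb3 was 2.83-fold higher in ORX than in control muscle, as fitted on the log2(value + 1) scale, and intermediate in ORX+DHT muscle. Control libraries 1, 2 and 3 held 209, 257 and 261 normalised counts, that is, reads divided by a scaling factor of the library, on 1 scale for all 9 libraries. The ORX libraries held 715, 811 and 553, and the ORX+DHT libraries 340, 280 and 506. Every ORX library lay above every ORX+DHT library, and every ORX+DHT library above every control. The means were 242 ± 29.2 in control, 693 ± 130 in ORX, with 376 ± 117 in ORX+DHT (SD, n = 3). On the log2(value + 1) scale the difference was 1.50 (SE 0.17) for ORX against control, -0.91 (SE 0.16) for ORX+DHT against ORX and 0.59 (SE 0.21) for ORX+DHT against control. ORX+DHT replicate 3 was the highest of its group, and without it the difference between ORX+DHT and control was 0.36. These values chose the gene.

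Summed fibroblast markers were also highest in ORX. The summed counts of 4 fibroblast markers were 1325 to 2654 in control, 2784 to 3739 in ORX, with 1671 to 2365 in ORX+DHT libraries, so all ORX libraries lay above all others. Most of the sum came from the collagen genes Col1a1 and Col3a1. Of these markers only Col1a1 had its ORX libraries above all others, whereas Col3a1, Pdgfra and Dcn overlapped between groups in all 3 comparisons. Limma called 0 of the 4 markers in ORX against control (unadjusted p under 0.05 for 2). In ORX+DHT against ORX it called 1, Col1a1, which fell by 1.18 on the log2 scale (limma adjusted p 2.89e-06). Of all genes tested, it called 0.0579% and 4.08% in these comparisons, in that order. The Schwann cell markers Mbp and Pmp22 had means of 20.7 and 47.4 normalised counts in control muscle. Their means were 34.9 and 57.7 in ORX muscle and 29.8 and 54.6 in ORX+DHT muscle, and neither passed limma in any comparison. None of these fibroblast and Schwann cell markers was at 0 in any library. Fewer cells of a type and less RNA per cell cannot be told apart in whole muscle, and the part of these cells in the Pfkfb3 values was not tested.

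The liver and muscle isoform Pfkfb1 (ENSMUSG00000025271, chrX:150588229-150643878) did not pass in any comparison. It stood at 83.7, 75.2 and 102 normalised counts in control libraries 1 to 3, 79.5, 58 and 91 in ORX, with 109, 84.1 and 98.8 in ORX+DHT. The groups overlapped in all 3 comparisons. The log2 difference was 0.37 (SE 0.16) between ORX+DHT and ORX (95% interval 0.027 to 0.71, limma p 0.0361, limma adjusted p 0.299).

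Pfkfb2 (ENSMUSG00000026409, chr1:130689182-130729253), for the isoform best known from heart, was the least abundant of the 4. It stood at 25, 33.2 and 28.8 in control, 18.7, 17.1 and 21.5 in ORX, with 22.3, 20.3 and 9.88 in ORX+DHT libraries. All controls lay above all libraries of both other groups. The log2 difference was -0.58 (SE 0.23, limma p 0.0306, limma adjusted p 0.675) for ORX against control and -0.76 (SE 0.31, limma p 0.0317, limma adjusted p 0.736) for ORX+DHT against control, so neither passed over all genes. In ORX+DHT against ORX it was -0.19 (95% interval -0.81 to 0.43), and 0.16 without ORX+DHT replicate 3, the low library.

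Pfkfb4 (ENSMUSG00000025648, chr9:108991778-109032228), for an isoform known from testis and from hypoxic cells, stood at 73.7, 112 and 67.5 in control, 93.3, 72.5 and 101 in ORX, with 105, 80.2 and 121 in ORX+DHT libraries. The 3 groups overlapped throughout. The log2 differences were 0.10 (95% interval -0.39 to 0.58) for ORX against control and 0.19 (-0.15 to 0.53) for ORX+DHT against ORX, with limma adjusted p of 0.936 and 0.663.

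**Figure D1:**
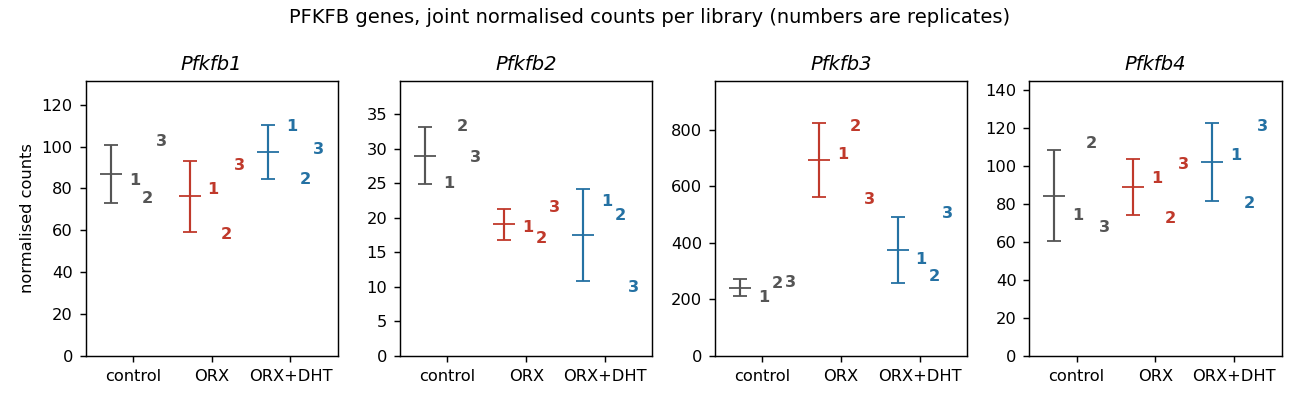
Joint normalised counts (vertical axes, each from 0) of the 4 PFKFB genes in control, ORX and ORX+DHT muscle; digits are the replicates, horizontal marks the group means and bars the SD (n = 3). Pfkfb3 is the only one of the 4 whose 3 groups are all separate.

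Levels of different genes were compared per length, as normalised counts per kb of merged exons. By this measure the 4 genes together gave 75 ± 7.03 in control, 131 ± 10.5 in ORX, with 97.3 ± 20.2 in ORX+DHT muscle (SD, n = 3). Pfkfb3 was the largest of the 4 in every library. Its share was 41.2% to 44.4% in the controls, 61.2% to 77.2% in ORX, with 46.4% to 56.9% in ORX+DHT. The differences in total and share between groups restate the Pfkfb3 values that chose the gene. Without Pfkfb3 the order was Pfkfb1 (21.7 ± 3.45 per kb in control), Pfkfb4 (17.3 ± 4.9) and Pfkfb2 (4.0 ± 0.565). Pfkfb1 and Pfkfb4 did not differ beyond their spread, and Pfkfb2 lay below both.

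**Figure D2:**
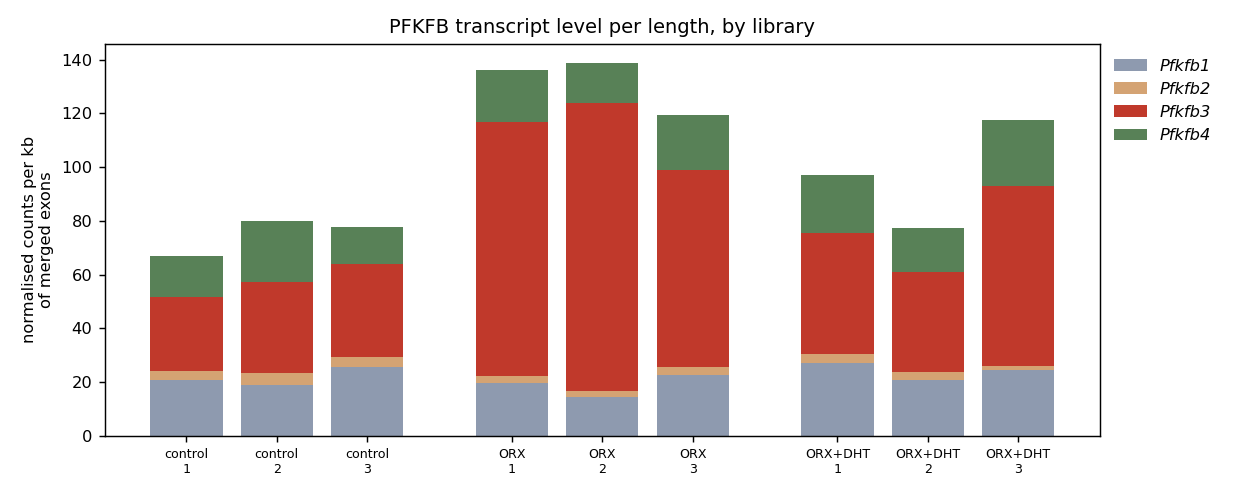
Normalised counts per kb of merged exons (vertical axis, from 0) of the 4 PFKFB genes, stacked, in each of the 9 libraries. The Pfkfb3 part sets the height: the total is 67 to 80.1 in controls, 120 to 139 in ORX, with 77.3 to 118 in ORX+DHT libraries.

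Among the AMPK genes listed here, Prkag3 (ENSMUSG00000006542, chr1:74738922-74749221), for γ3, had the largest difference between ORX+DHT and ORX. Its ORX+DHT libraries were the lowest. It stood at 313, 295 and 257 normalised counts in control libraries 1 to 3, 258, 281 and 231 in ORX, with 153, 203 and 132 in ORX+DHT. All ORX+DHT libraries lay below all others, while control and ORX libraries overlapped. The means were 289 ± 28.7, 257 ± 24.9 and 163 ± 36.3 (SD, n = 3). The log2 difference was -0.17 (SE 0.15) for ORX against control, -0.67 (SE 0.13) for ORX+DHT against ORX and -0.84 (SE 0.18) for ORX+DHT against control. Leaving out 1 library in turn gave -0.84 to -0.53 and -1.01 to -0.70 for the last 2. These values chose the gene.

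Fast fibre markers differed among themselves in this comparison. The sum of 6 of them was 191978 to 207468 normalised counts in control, 170449 to 182963 in ORX, with 175359 to 184254 in ORX+DHT libraries, so ORX and ORX+DHT overlapped. Limma called 2 of the 6 markers higher in ORX+DHT against ORX, Myh1 and Tnni2 (log2 0.47 and 0.39, limma adjusted p 0.00755 and 0.0103), and 0 lower. Of all genes tested in ORX+DHT against ORX, 2.38% were called higher and 1.7% lower. Pvalb, for the calcium buffer parvalbumin of fast fibres, lay the same way as Prkag3: its ORX+DHT libraries, at 8841 to 11380 normalised counts, were below all ORX (11533 to 13529) and all control libraries (12827 to 28922). Its log2 difference was -0.28 against ORX (limma adjusted p 0.154) and -0.76 against control (limma adjusted p 0.736), so it did not pass. Myh4 stood at -0.08 and -0.28 (limma adjusted p 0.767 and 0.781), with overlapping groups. The part of fibre type in the Prkag3 values was not tested. The 7 slow fibre markers summed to 200 to 326, 271 to 311 and 155 to 232, and 1 of the 3 tested fell, Myl3 (log2 -0.75, limma adjusted p 0.0166).

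Prkag1 (ENSMUSG00000067713, chr15:98812797-98831521), for the widely expressed γ1, stood at 61.2, 29.9 and 29.8 in control, 31.4, 29 and 28.1 in ORX, with 16.2, 29 and 31.6 in ORX+DHT libraries. Control replicate 1 was high and ORX+DHT replicate 1 low, and the other 7 libraries lay between 28.1 and 31.6. The log2 difference between ORX+DHT and ORX was -0.25 (95% interval -0.76 to 0.26, limma adjusted p 0.714), while leaving out ORX+DHT replicate 1 gave 0.037. Between ORX and control it was -0.35 (limma adjusted p 0.797), and -0.016 when control replicate 1 was left out. Between ORX+DHT and control it was -0.60, and -0.27 when that library was left out (limma adjusted p 0.736 and 0.817). Per kb, Prkag3 stood at 78.4 ± 7.78 in control, 69.7 ± 6.78 in ORX, with 44.2 ± 9.86 in ORX+DHT muscle, and Prkag1 at 18.5 ± 8.32, 13.6 ± 0.783 and 11.8 ± 3.79, so γ3 transcripts were the more abundant of the pair in all 3 groups.

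The α subunits carry the kinase. Prkaa2 (ENSMUSG00000028518, chr4:105029874-105109890), for α2, stood at 370, 597 and 449 in control, 523, 418 and 414 in ORX, with 496, 444 and 455 in ORX+DHT libraries. The means were 472 ± 115, 452 ± 61.8 and 465 ± 27.3 (SD, n = 3). The 95% interval of the log2 difference was -0.45 to 0.36 for ORX against control, -0.16 to 0.26 for ORX+DHT against ORX and -0.38 to 0.39 for ORX+DHT against control (limma adjusted p 0.972, 0.883 and 0.994). The sign of these small differences changed with the library left out and with the scaling.

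Prkaa1 (ENSMUSG00000050697, chr15:5143861-5181899), for α1, stood at 36.2, 35.4 and 37.7 in control, 38.3, 31.6 and 34.7 in ORX, with 34.5, 27.1 and 27.7 in ORX+DHT libraries. The ORX+DHT libraries lay below the controls, with a log2 difference of -0.29 (95% interval -0.74 to 0.16, limma adjusted p 0.763). Against ORX the difference was -0.23 (-0.63 to 0.18, limma adjusted p 0.671), and these groups overlapped.

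Prkab2 (ENSMUSG00000038205, chr3:97658193-97673812), for the muscle scaffold β2, was the most abundant of the 10 genes per kb, at 155 ± 11.4 in control, 166 ± 5.57 in ORX, with 140 ± 8.44 in ORX+DHT muscle (SD, n = 3). In normalised counts it stood at 727, 837 and 812 in control, 817, 873 and 848 in ORX, with 712, 672 and 758 in ORX+DHT libraries. All ORX+DHT libraries lay below all ORX libraries. The log2 difference was -0.25 (SE 0.080, limma p 0.00676), which did not pass over all genes (limma adjusted p 0.113). It passed after quantile normalisation (log2 -0.33, limma adjusted p 0.0171) and with the replicate number as a block (limma adjusted p 0.0347), and without single libraries its limma adjusted p ran from 0.0979 to 0.348.

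Prkab1 (ENSMUSG00000029513, chr5:116013586-116024508), for β1, was low, at 18.7, 22.1 and 14.9 normalised counts in control, 16.7, 13.6 and 14.9 in ORX, with 23.3, 16.4 and 21.7 in ORX+DHT libraries. ORX+DHT replicate 2 lay just below ORX replicate 1, so these groups overlapped. The log2 difference between ORX+DHT and ORX was 0.41 (95% interval -0.12 to 0.94, limma adjusted p 0.50).

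**Figure D3:**
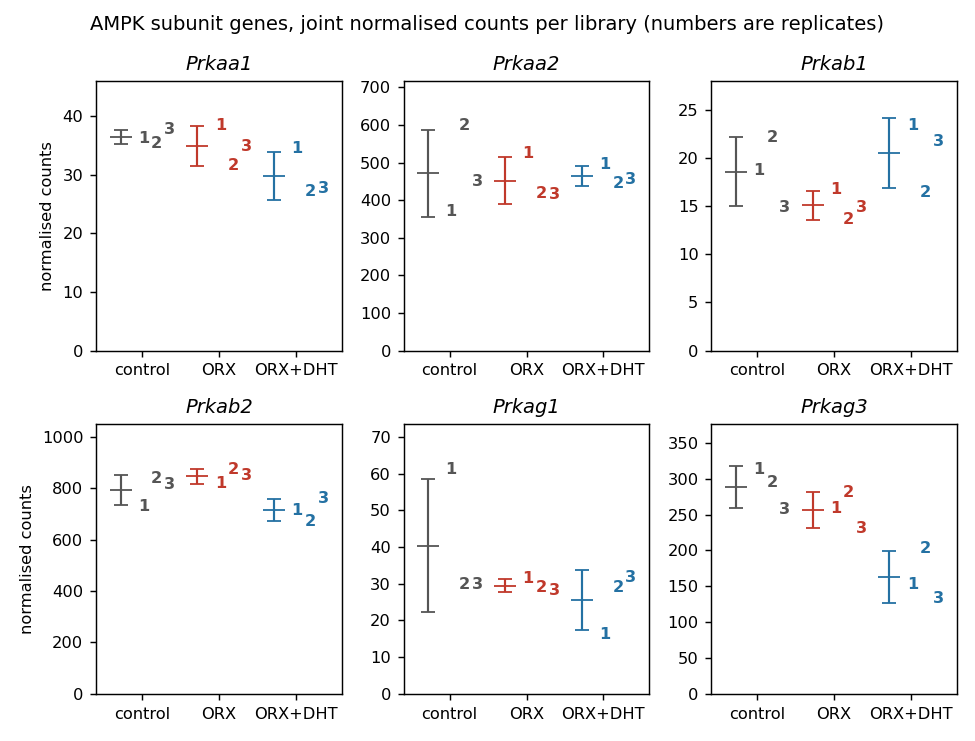
Joint normalised counts (vertical axes, each from 0) of the 6 AMPK subunit genes by group; digits are the replicates, horizontal marks the means and bars the SD (n = 3). The ORX+DHT libraries of Prkag3 lie between 132 and 203, below all control and ORX libraries, and Prkag1 has 2 libraries far from the other 7.

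Isoform make-up was compared within each library, where library scaling cancels apart from the pseudocount. Per length, α2 transcripts exceeded α1 transcripts 7.24-fold in control, 7.35-fold in ORX, with 8.89-fold in ORX+DHT muscle, and β2 exceeded β1 24.6-fold, 31.8-fold and 20.2-fold. The log2 ratio of Prkab2 to Prkab1 was 4.47, 4.45 and 4.94 in control, 4.80, 5.17 and 5.01 in ORX, with 4.14, 4.54 and 4.33 in ORX+DHT libraries. All ORX+DHT libraries lay below all ORX libraries, a difference of -0.65 (two-sided exact permutation p 0.1, adjusted p 0.3 over 6 tests). The log2 ratio of Prkaa2 to Prkaa1 was higher in all 3 ORX+DHT libraries (3.03 to 3.21) than in all ORX libraries (2.76 to 2.96), a difference of 0.27 (exact permutation p 0.1, adjusted p 0.3). With 3 libraries against 3 this test cannot go below 0.1, so neither difference could pass. The other 4 tests had exact permutation p of 0.2 to 0.9.

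Over the 8 members that were not picked for their change, limma called 0 in each of the 3 comparisons at an adjusted p under 0.05. Of all genes tested, 0.0579% of 8631 were called in ORX against control, 4.08% of 8770 in ORX+DHT against ORX and 0.0349% of 8595 in ORX+DHT against control. An unadjusted p under 0.05 was found for 1, 2 and 1 of the 8, and edgeR and DESeq2 on the recovered reads also called 0 of the 8 in each comparison. Groups did not overlap for 1, 1 and 2 of the 8, against 14.3%, 19.5% and 14% of all genes tested. The median log2 difference of the 8 was -0.14, -0.071 and -0.072, against -0.0077, 0.0062 and -0.0051 over all genes tested. All 10 members passed the filter of a mean of at least 10 normalised counts in every comparison.

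**Figure D4:**
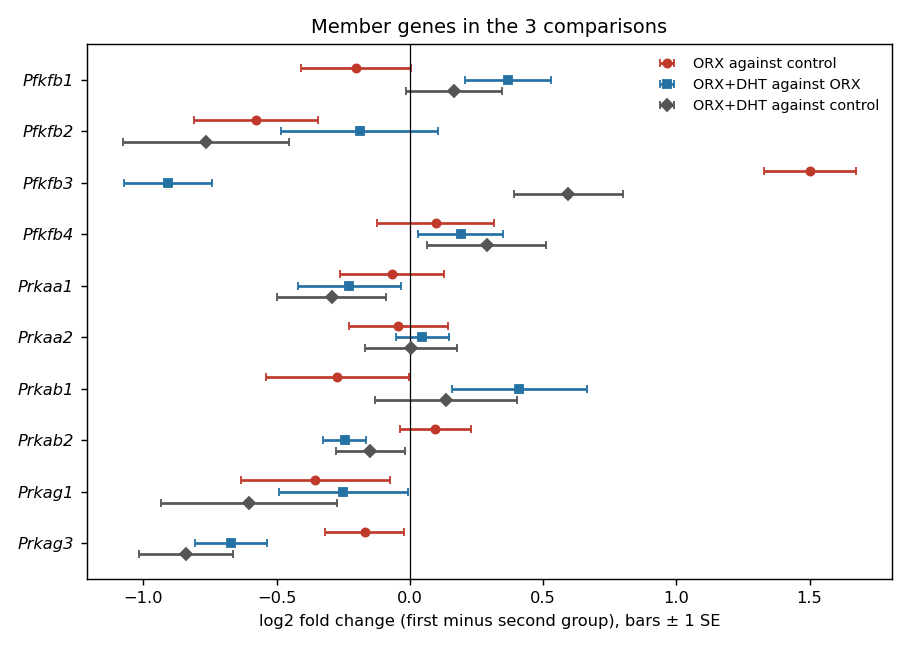
Log2 fold change (horizontal axis) of the 10 genes in the 3 comparisons, with bars of 1 SE; the first 2 comparisons share the ORX libraries, the last 2 the ORX+DHT libraries, and the first and last the controls. Pfkfb3 lies at 1.50, -0.91 and 0.59 and Prkag3 at -0.17, -0.67 and -0.84, while the other 8 stay between -0.76 and 0.41.

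The genes around these enzymes were taken from 5 lists of 55 genes, of which 44 were tested in each comparison. Of the 44, 5 rose and 0 fell in ORX+DHT against ORX, where 2.38% of all genes tested rose and 1.7% fell. The lists were chosen with earlier results of these data known, so the 2 shares are not an independent comparison. In the comparisons of either group with control, limma called 0 of 44 (unadjusted p under 0.05 for 3 and 4). The median log2 difference of the 44 in ORX+DHT against ORX was -0.034, against 0.0062 over all genes. Muscle fibre markers rose in the same comparison: limma called 3 of 5 higher, Acta1 (log2 0.47, limma adjusted p 0.00357), Mb (0.51, 0.0002) and Des (0.28, 0.0415), and 0 lower. Their part in the values of the 5 genes was not tested.

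Within the list of enzymes that act on fructose-2,6-bisphosphate or answer to it, 2 of 5 rose with DHT. Fbp2, for the muscle fructose-1,6-bisphosphatase that fructose-2,6-bisphosphate inhibits, stood at 83.7, 36.5 and 36.7 normalised counts in control, 46.1, 34.1 and 44.7 in ORX, with 87.1, 82.2 and 106 in ORX+DHT libraries. Only control replicate 1 among the controls reached the ORX+DHT range. Its log2 fold change against ORX was 1.13 (SE 0.16, limma adjusted p 0.00025), and 1.12 with all 9 libraries in 1 fit (limma adjusted p 0.0567). Against control it did not pass (log2 0.90, limma adjusted p 0.736), but did without control replicate 1 (log2 1.29, limma adjusted p 0.00123).

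Tigar, for a phosphatase that removes fructose-2,6-bisphosphate, stood at 186, 254 and 233 in control, 180, 217 and 183 in ORX, with 264, 270 and 300 in ORX+DHT libraries. All ORX+DHT libraries lay above all others. Its log2 fold change against ORX was 0.53 (SE 0.10, limma adjusted p 0.00524), and with all 9 libraries in 1 fit the limma adjusted p was 0.113. Pfkm, named like Pfkl and Pfkp after the values were seen, for the muscle phosphofructokinase-1 that fructose-2,6-bisphosphate activates, averaged 9109 ± 142, 8481 ± 186 and 9611 ± 818 (SD, n = 3). Its log2 difference between ORX+DHT and ORX was 0.18 (limma adjusted p 0.322). The low isoforms Pfkl and Pfkp did not pass either (limma adjusted p 0.851 and 0.589).

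Of 18 genes for AMPK substrates, 2 rose with DHT. Tbc1d1, for a regulator of glucose transporter traffic in muscle, stood at 184, 291 and 212 in control, 219, 179 and 176 in ORX, with 376, 269 and 418 in ORX+DHT libraries. ORX+DHT and ORX did not overlap, and the fitted difference on the log2 scale was 0.87 (SE 0.14, limma adjusted p 0.0007). Ppargc1a, for the coactivator PGC-1α of mitochondrial genes, stood at 66.7, 78.5 and 61.2 in ORX and 107, 106 and 98.8 in ORX+DHT libraries, with controls from 42.5 to 105. Its log2 fold change against ORX was 0.60 (SE 0.13, limma adjusted p 0.013). Its call was lost without ORX+DHT replicate 1 or 2 (limma adjusted p 0.0733 and 0.0564), with all 9 libraries in 1 fit (0.481) and with DESeq2 (adjusted p 0.0851).

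Hk2, for the hexokinase of muscle, was the 1 of 7 hypoxia-responsive genes that rose. It stood at 733, 869 and 926 in control, 747, 752 and 627 in ORX, with 1234, 1122 and 1245 in ORX+DHT libraries. All ORX+DHT libraries lay above all others, and its log2 difference from ORX was 0.76 (SE 0.088, limma adjusted p 1.95e-05). Against control it was 0.52 and did not pass (limma adjusted p 0.624), but did without control replicate 1 (log2 0.42, limma adjusted p 0.0204). Of 6 tested genes for kinases and partners upstream of AMPK and 8 tested AMPK-related kinases, limma called 0 in this comparison (unadjusted p under 0.05 for 1 and 2). The AMPK-related kinase gene Sik1, named after its values were seen, stood at 61.8, 48.6 and 29 in ORX and 24.3, 29 and 22.7 in ORX+DHT libraries (log2 -0.79, limma adjusted p 0.0834).

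**Figure D5:**
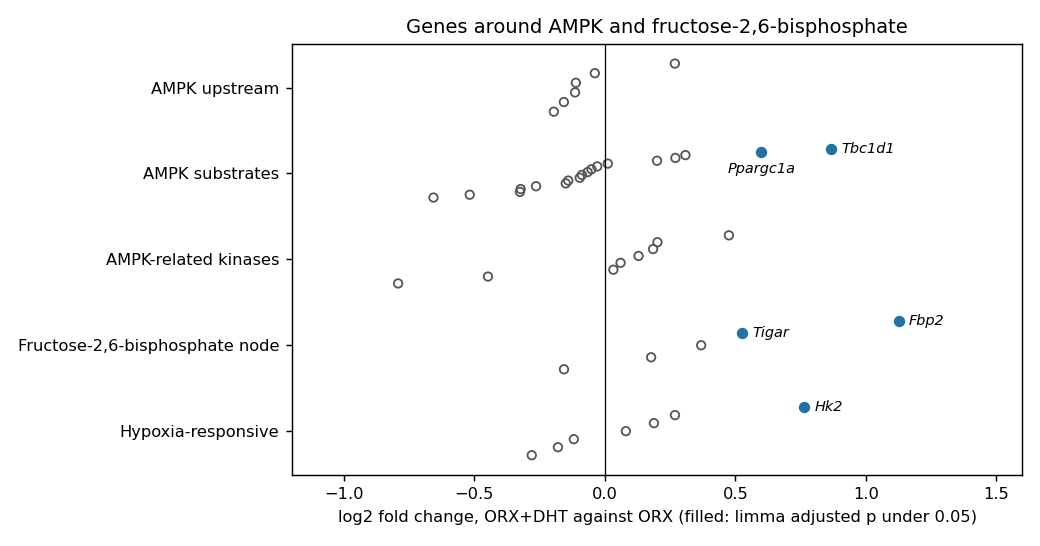
Log2 fold change in ORX+DHT against ORX muscle (horizontal axis) of the tested genes of 5 lists; filled points passed limma at an adjusted p under 0.05. The 5 filled points, Tbc1d1, Ppargc1a, Tigar, Fbp2 and Hk2, lie between 0.53 and 1.13, and no gene passed on the lower side.

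The genes whose pattern over the 9 libraries was most like that of Pfkfb3 and of Prkag3 were sought among 3795 genes with a mean of at least 50, by the root mean square difference of gene-centred log2 values. For Pfkfb3 they included Fzd7, Gja1, Ide and Col5a2, with differences of 0.35 to 0.44, where the median gene had 0.71. Fzd7, for a Wnt receptor, averaged 66.2 ± 26, 121 ± 15 and 71.3 ± 11.3 in control, ORX and ORX+DHT muscle (SD, n = 3), with its ORX libraries above all others. For Prkag3 they were Creg1, Ampd1, Fam114a2, Maf and Thoc7, with differences of 0.16 to 0.19, where the median gene had 0.45. Ampd1, for the muscle AMP deaminase, averaged 1870 ± 106, 2103 ± 73 and 1191 ± 163, and all its ORX+DHT libraries lay below all others. All genes of both sets were picked by likeness over these same libraries, so their separation between groups largely follows from the choice.

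Counts of 4 members may hold reads of a neighbour. Exons of Pfkfb1, Prkab2 and Prkag1 overlap an annotated gene on the opposite strand, and those of Pfkfb2 overlap 1 on each strand. The library kit keeps the strand, but whether counting used it is not given in the sources used here.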

How the data were processed

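RNA from 9 muscle libraries was polyA-selected and sequenced with a strand-keeping kit, per the labels' protocols. Trim Galore 0.6.7, HISAT2 2.2.1, featureCounts 2.0.1, DESeq2 1.36.0 and the build GRCm38 are named in the submitters' processing notes; the annotation is not given in the sources used here. The authors deposited 2 tables of normalised counts of protein-coding genes, a signal scaled separately in each table (control with ORX, 14596 genes; ORX with ORX+DHT, 14675 genes); 0 columns were left unmapped. Sham columns were taken as control by replicate number, control being the only group without orchiectomy. In every column 100% of values were whole multiples of 1 step (tolerance 0.01), which gave back the reads; for control replicate 3 the step was close to 1 and could not be told from rounding.

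Each comparison was fitted across all genes with a mean of at least 10 with limma 3.58.1 (R 4.3.3, lmFit, eBayes with trend) on log2(value + 1), with Benjamini-Hochberg adjustment, which understates changes of low genes. The 2 comparisons that the tables hold used their own table each. ORX+DHT against control used the 14300 shared genes after median-of-ratios scaling of all 9 libraries, the scale of all printed levels. Lengths, coordinates and overlaps came from GENCODE M21 (GRCm38). Scripts were tested on simulated data. Alternatives included edgeR 4.0.16 and DESeq2 1.42.0 on recovered reads. All members, called list genes and the 5 genes nearest in pattern to Pfkfb3 and Prkag3 were named by rule, except 1 gene that is not reported here. The members and lists were chosen with earlier results of these data known. Replicate numbers were not taken as pairs.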

Additional observations from a re-analysis of the deposited data

How the results depend on the processing

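Pfkfb3 and Prkag3 were picked by their values in these same libraries, so other processing of them gives no independent support. Both kept their directions in all 3 comparisons under every alternative run. For Prkag3 in ORX against control, where the groups overlapped, the log2 values ran from -0.25 to -0.079. The alternatives were pseudocounts of 0.1 and 10, TMM scaling, quantile normalisation, no filter on low values, a mean of at least 50, all 9 libraries in 1 fit, the replicate block, each library left out, edgeR and DESeq2. Of the 8 other members, 0 were called in any comparison under these, except 1 in ORX+DHT against ORX after quantile normalisation and 1 with the replicate block, Prkab2 both times; leaving out a library gave 0 throughout. Of the list genes, 5 were called in ORX+DHT against ORX, 2 with all 9 libraries in 1 fit, 9 with the replicate block and 4 to 6 with 1 library left out; in ORX+DHT against control the count was 0 to 2 with 1 library left out, the 2 being Fbp2 and Hk2 without control replicate 1. The cause was not tested.

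The replicate block raised calls over all genes from 358 to 571 in ORX+DHT against ORX. Deviations of same-numbered libraries there correlated at 0.063, 0.061 and 0.15 across genes, each library highest with its own number. Not all of these were over 0.1, and in ORX against control they were -0.16, 0.06 and -0.11, so the pairing was not used. A batch shared by same-numbered ORX and ORX+DHT libraries was not tested. Calls over all genes were 5, 358 and 3 in the 3 comparisons (ORX against control, ORX+DHT against ORX, ORX+DHT against control), 6, 366 and 4 with edgeR, 28, 221 and 13 with DESeq2, and 23, 123 and 11 with all 9 libraries in 1 fit. They were 16 and 21 in the first and last with no filter on low values, and 6 in the last with quantile normalisation. Leaving out 1 library gave 1 to 51, 223 to 350 and 0 to 66, with 51 and 66 both without control replicate 1.

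Signs reversed only for small, uncalled differences. With 1 library left out, log2 values ran from -0.046 to 0.32 for Pfkfb4, -0.13 to 0.00018 for Prkaa1, -0.20 to 0.14 for Prkaa2, -0.42 to 0.17 for Fbp2, -0.46 to 0.18 for Ppargc1a in ORX against control. They ran from -0.40 to 0.16 for Pfkfb2, -0.012 to 0.16 for Prkaa2, -0.42 to 0.037 for Prkag1 in ORX+DHT against ORX. The ranges were -0.16 to 0.19 for Prkaa2 and -0.0050 to 0.28 for Prkab1 in ORX+DHT against control. Prkaa2 became 0.076 and -0.022 in the first 2 comparisons with quantile normalisation, and -0.017 (edgeR) and -0.022 (DESeq2) in the last. The log2 ratio of Prkaa2 to Prkaa1 in ORX against control, 0.023, ran from -0.13 to 0.23 with 1 library left out. The cause was not tested.

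Prkab1 and Pfkfb2 had the lowest mean levels of the 10 members, at 18 and 21.8 normalised counts. The part of depth in the width of their intervals was not tested.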
